A study of Mus musculus with 17 samples.

Results

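The genes described here are the Wnt ligands, their receptors and the secreted proteins that block or boost them, measured in cell lines raised from mammary tumors and metastases of the mouse. Members were taken by symbol: every Wnt, Fzd, Sfrp, Dkk and Rspo gene with a number, together with Lrp5, Lrp6, Lgr4, Lgr5, Lgr6, Axin2 and Wif1. This gave 49 of the 55450 genes in the bulk table: 19 Wnt ligands, 10 frizzled receptors, 9 secreted antagonists, 4 R-spondins, 3 Lgr receptors, 2 Lrp co-receptors, Axin2 and 1 antisense transcript, Rspo4os. The rule reads gene symbols.

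The lines came from FVB/NJ MMTV-PyMT females, in which the mouse mammary tumor virus promoter drives the polyoma middle T oncogene in the mammary epithelium, so every group carried this transgene. Tumor-bearing organs were dissociated and cultured, and the cells were sorted on the surface proteins EpCAM and CD44. Bulk RNA-seq covered 14 libraries in 7 groups of 2: the primary tumor of the mammary fat pad (MFP), for which the labels give no CD44 status, and, each as CD44low and as CD44high, the EpCAMhigh cells of lung, of bone marrow (BM) and of lymph node (LN). Per the study's methods, the replicates were separate clonal isolates from different mice, 10 to 12 weeks old, so each library stood for 1 line grown in culture. Single-cell RNA-seq covered 1 library each of lung CD44high (lungH), lung CD44low (lungL) and lymph node CD44high (lymphH) cells.

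Wnt proteins are lipid-modified secreted ligands that bind a frizzled receptor. With Lrp5 or Lrp6 as the co-receptor they protect beta-catenin from destruction, and beta-catenin with TCF or LEF factors then switches on target genes such as Axin2; other Wnt-receptor pairs act without beta-catenin on cell polarity and movement. R-spondins bind Lgr4, Lgr5 or Lgr6 and keep frizzled receptors at the surface, while Sfrp and Wif1 proteins bind the ligands and Dkk proteins mostly bind the co-receptors. In the mammary gland this pathway guides branching and maintains basal progenitors, and ectopic Wnt1 was the classic activated oncogene of virus-induced mouse mammary tumors.

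Values of the bulk table are in TPM, a transcript level per length that is scaled to the same total in each library. A gene was tested when 2 or more of the 14 libraries held 1 TPM or more, which 15348 genes did. Differences are means of log2(TPM + 1) with a standard error (SE), on which the change of low genes is understated. A gene was called higher or lower when the difference passed 2 on this log2 scale and limma's Benjamini-Hochberg adjusted p over all genes tested was under 0.05. Where every library of a group was listed at 0, the difference depends on the added 1 and is no fold change.

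The label EpCAMhigh refers to surface protein at the sort, while the libraries measure RNA. High Epcam RNA was found outside the lung alone. Epcam was at 315 to 941 TPM in the MFP, LN and BM libraries, but at 0 in both lung CD44low libraries and at 0.23 and 0.86 TPM in the lung CD44high libraries. All 8 epithelial markers tested were called lower than MFP in both lung groups, where 7.62% (CD44low) and 8.03% (CD44high) of all genes were. In each LN and BM group 2 or 3 of them were, beside 2.72% to 4.03% of all genes. Among these was Cldn7, at 428 and 321 TPM in MFP and at most 0.65 TPM elsewhere. Cldn7 had passed the filter of 1 TPM through MFP alone, so its lower level elsewhere was built in. Cdh1, Cldn3, Cldn4, Epcam and Esrp1 had passed through MFP, LN and BM alone, so their lower level in the lung was built in. Of the 6 myoepithelial or basal markers, Krt14 was at 594 and 655 TPM in MFP, 12.6 to 62.4 TPM in LN and BM and 0 in the lung, Oxtr was at 33.5 and 49.5 TPM in lung CD44high and at most 0.09 TPM elsewhere, and Krt5 and Krt17 were at most 0.44 TPM. The 10 fibroblast markers summed to 4789 and 5230 TPM in lung CD44low, to 216 and 103 TPM in lung CD44high and to at most 46.2 TPM elsewhere, with Dcn alone at 4091 and 4315 TPM in lung CD44low. Of the macrophage and leukocyte markers, Adgre1 was at 0 in every library and Ptprc at no more than 0.20 TPM, but Cd68 was at 10.4 and 22.5 TPM in MFP and at 1.31 to 5.47 TPM elsewhere, and was called lower than MFP in LN CD44high and BM CD44low. The endothelial sum was no more than 0.21 TPM. These values moved with results below, and their part in them was not tested. In bulk samples, fewer cells of a type and less RNA per cell cannot be told apart. BM CD44low replicate 2 also stood apart, with 22997 genes above 0 against 17040 to 20331 in the other libraries, and results that rest on it are given with and without it.

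Most of the Wnt ligands were silent or nearly so. Of the 49 members, 28 passed the filter and 21 did not, and the highest value among those 21 was 0.65 TPM, for Wnt10a. Dkk4, Wnt2, Wnt3, Wnt3a, Wnt8a and Wnt9b were listed at 0 in all 14 libraries. Among the 19 Wnt ligands, 5 passed: Wnt5a, Wnt5b, Wnt7a, Wnt7b and Wnt9a. Among the 10 frizzled receptors, Fzd10 alone did not. Of the 28 members that passed, 9 did so through lung groups alone: Rspo1, Rspo2, Dkk2, Dkk3 and Sfrp4 through lung CD44low alone, and Rspo3, Wnt5a, Fzd8 and Sfrp2 through both lung groups. A higher level in the lung was built into the filter for these 9, and a lower level in lung CD44high than in lung CD44low for the first 5, so their differences in those directions are given as descriptions. The same holds for Wif1 and Fzd9, which passed through LN and BM groups alone, against MFP and the lung, and for Wnt7a, which passed through MFP and LN CD44low alone, against the other 5 groups. It holds as well for Axin2, which passed through lung CD44high and BM CD44low alone. Wnt5b passed through MFP, LN and BM groups alone, so its lower level in the lung was built in too.

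**Figure D1:**
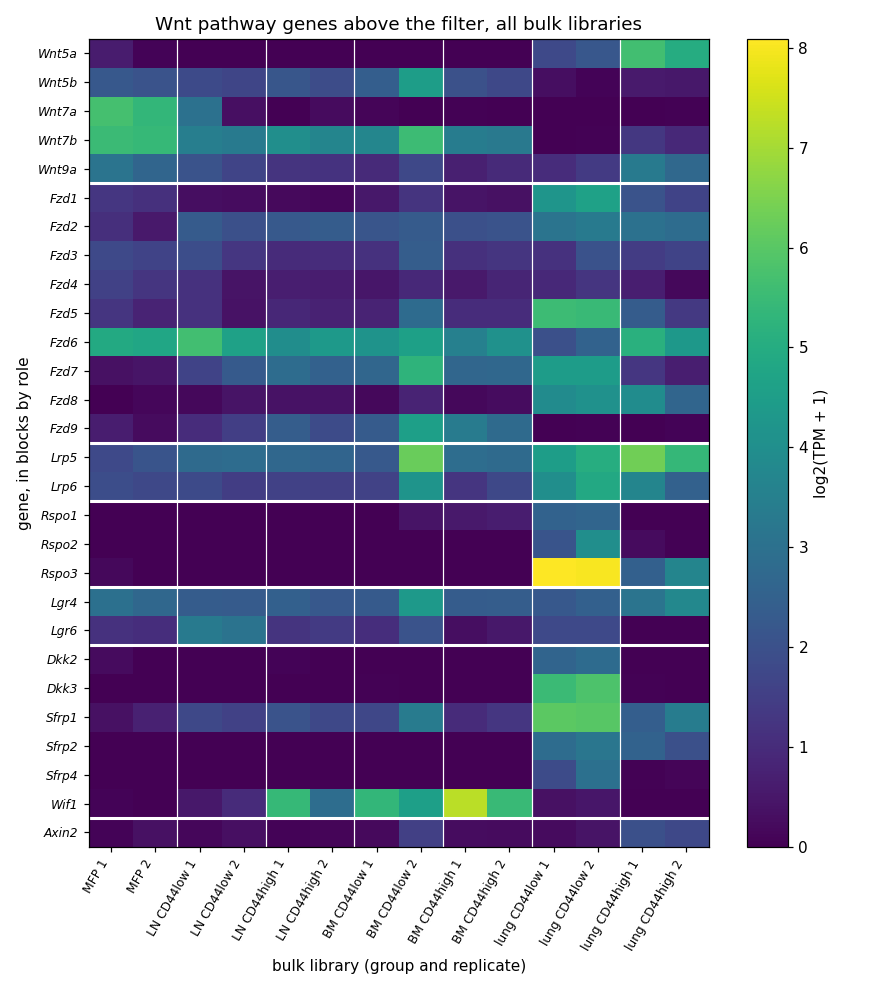
Levels of the 28 members that passed the filter, as log2(TPM + 1), in the 14 bulk libraries (columns, 2 per group). White horizontal lines separate ligands, frizzled receptors, co-receptors, R-spondins, Lgr receptors, secreted antagonists and Axin2. The lung CD44low columns are high for Rspo3, Dkk3 and Sfrp1, the MFP columns for Wnt7a and Wnt7b, and the BM columns for Wif1.

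Start-site sequences are shown for 5 members that differed between groups, since the TCF and LEF factors of the pathway bind DNA. They are the 250 bases before the RefSeq start site in GRCm38.p6, read 5′ to 3′ on the gene's strand. Capitals mark the TCF/LEF word searched on either strand, CTTTG followed by 2 letters that are each A or T. RefSeq entries matched 31 members. Rspo1, Dkk2 and Fzd7 were high in lung CD44low cells, Wif1 in bone marrow cells and Wnt7a in the primary tumor.
Rspo1, chr4:124986180-124986429, plus strand: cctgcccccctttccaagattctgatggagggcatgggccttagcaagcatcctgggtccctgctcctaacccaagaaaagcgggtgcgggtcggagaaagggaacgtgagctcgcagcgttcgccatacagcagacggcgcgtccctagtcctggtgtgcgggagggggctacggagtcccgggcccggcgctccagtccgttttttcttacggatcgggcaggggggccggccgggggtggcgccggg
Dkk2, chr3:132085042-132085291, plus strand: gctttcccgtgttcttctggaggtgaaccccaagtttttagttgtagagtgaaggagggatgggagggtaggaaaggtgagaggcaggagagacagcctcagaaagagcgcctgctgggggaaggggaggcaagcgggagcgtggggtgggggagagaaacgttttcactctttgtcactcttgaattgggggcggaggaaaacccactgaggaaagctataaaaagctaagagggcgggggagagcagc
Fzd7, chr1:59481897-59482146, plus strand: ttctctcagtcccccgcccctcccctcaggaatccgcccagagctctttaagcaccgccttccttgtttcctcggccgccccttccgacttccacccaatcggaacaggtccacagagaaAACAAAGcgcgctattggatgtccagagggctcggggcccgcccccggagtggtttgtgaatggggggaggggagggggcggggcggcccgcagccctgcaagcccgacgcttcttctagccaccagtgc
Wif1, chr10:121033754-121034003, plus strand: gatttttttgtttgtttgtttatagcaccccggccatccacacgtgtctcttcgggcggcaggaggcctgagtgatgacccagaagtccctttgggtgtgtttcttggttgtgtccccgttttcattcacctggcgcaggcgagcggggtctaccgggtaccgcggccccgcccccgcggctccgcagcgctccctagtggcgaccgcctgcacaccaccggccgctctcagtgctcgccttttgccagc
Wnt7a, chr6:91411354-91411603, minus strand: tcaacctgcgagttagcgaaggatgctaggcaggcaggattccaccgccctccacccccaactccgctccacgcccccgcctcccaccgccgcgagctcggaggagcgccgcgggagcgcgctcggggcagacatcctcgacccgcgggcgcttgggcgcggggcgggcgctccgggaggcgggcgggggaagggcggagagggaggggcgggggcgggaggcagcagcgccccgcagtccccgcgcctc
The word stood in 14.8% of 32851 promoters of the same length. Among the 15 tested members with an entry, 1 held it: Fzd7, 130 bases before its RefSeq start site, a start that lies upstream of the GENCODE transcript. The 5 windows held 7 (Dkk2), 17 (Fzd7), 21 (Wif1), 22 (Rspo1) and 34 (Wnt7a) CG pairs, against a median of 6 over all promoters. These are descriptions of the windows alone.

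Among the ligands, Wnt7a marked the primary tumor, while Wnt7b was high there and as high in BM CD44low replicate 2. Both are ligands made by epithelial cells in many organs. Wnt7a (ENSMUSG00000030093.7, mm10 chr6:91363981-91411363, minus strand) was at 51.2 and 40.05 TPM in MFP and at 7.12 and 0.26 TPM in LN CD44low. No other library passed 0.19 TPM, so the MFP libraries stood above all the rest without overlap. Wnt7a was called lower than MFP in each of the 6 other groups, with a difference of -3.86 ± 0.64 (SE) in LN CD44low (adjusted p = 0.00286) and of -5.41 to -5.53 in the others. The LN CD44low difference ran from -5.20 without its replicate 1 to -2.51 without its replicate 2, and was not called when only these groups were fitted (adjusted p = 0.184). These 6 comparisons share the same MFP libraries.

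Wnt7b (ENSMUSG00000022382.15, mm10 chr15:85535437-85582473, minus strand) was at 44.6 and 41.5 TPM in MFP, at 46.0 TPM in BM CD44low replicate 2 and between 8.70 and 14.9 TPM in the other 7 libraries of LN and BM. It was at 0.02 and 0.04 TPM in lung CD44low and at 1.47 and 0.92 TPM in lung CD44high. The lung libraries thus lay below every other library, and the mean of the lung groups was lower than that of the LN and BM groups (-3.22 ± 0.29, adjusted p = 9.79e-06). Against MFP the difference was -5.42 ± 0.48 in lung CD44low and -4.34 ± 0.48 in lung CD44high. It was also called lower in LN CD44low (-2.07 ± 0.48) and BM CD44high (-2.13 ± 0.48), close to the threshold. Both of these calls ended when the libraries were scaled by their median ratio or relieved of their GC and length trends. Wnt7b was not called in BM CD44low (-0.82 ± 0.48) or LN CD44high.

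Wnt5a, the prototype of the ligands that act without beta-catenin, was highest in lung CD44high. Wnt5a (ENSMUSG00000021994.15, mm10 chr14:28504750-28527448, plus strand) was at 49.3 and 31.3 TPM in lung CD44high, 2.45 and 3.60 TPM in lung CD44low, 0.54 and 0.06 TPM in MFP, and 0 in all 8 LN and BM libraries. The groups did not overlap. It was higher in lung CD44high than in lung CD44low by 3.34 ± 0.27 (adjusted p = 8.88e-06). Its differences from MFP were 4.98 ± 0.27 in lung CD44high and 1.64 ± 0.27 in lung CD44low, a direction fixed by its passing the filter through the lung alone.

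Wnt9a was at 7.73 and 5.22 TPM in MFP and at 8.76 and 5.71 TPM in lung CD44high, which overlap, and at no more than 3.17 TPM elsewhere. It was called lower than MFP in BM CD44high (-2.05 ± 0.35, adjusted p = 0.00212), a call that ended under median-ratio scaling, with the GC and length trends removed, and without MFP replicate 1 or BM CD44high replicate 1. Wnt5b was at 21.9 TPM in BM CD44low replicate 2, between 2.25 and 4.30 TPM in the other MFP, LN and BM libraries, and at 0.06 to 0.50 TPM in the lung. Its difference of lung CD44low from MFP, -1.97 ± 0.53, had an adjusted p of 0.0129 and fell just short of the fold threshold. Wnt5b had passed the filter outside the lung alone, which fixed this direction.

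**Figure D2:**
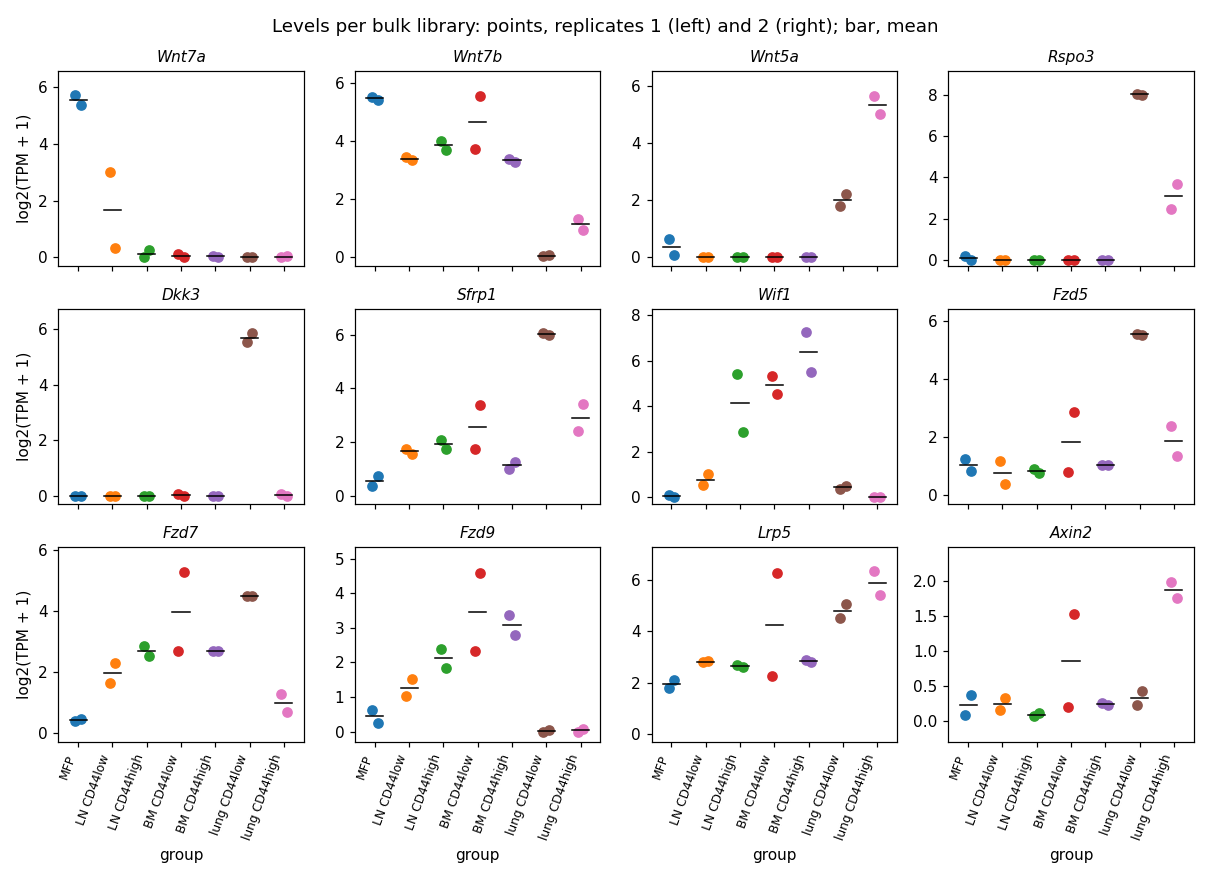
Levels of 12 members in every bulk library, as log2(TPM + 1); points are the replicates and bars the mean of each group, and each panel has its own vertical scale from about 0. Wnt7a sits at the MFP end, Wnt5a and Axin2 peak in lung CD44high, Rspo3, Dkk3 and Fzd5 in lung CD44low, and BM CD44low replicate 2 lies far above replicate 1 for Fzd7, Fzd9 and Lrp5.

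The frizzled receptors fell into those high in lung CD44low and those high elsewhere. Fzd5 (ENSMUSG00000045005.9, mm10 chr1:64730558-64737751, minus strand) was at 45.7 and 44.1 TPM in lung CD44low, 4.16 and 1.55 TPM in lung CD44high and 6.18 TPM in BM CD44low replicate 2, and at no more than 1.37 TPM in the other 9 libraries. Both lung CD44low libraries lay above all others. Fzd5 was higher there than in MFP by 4.49 ± 0.59 (adjusted p = 0.000206) and the difference of lung CD44high from lung CD44low was -3.66 ± 0.59.

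Fzd1 was at 17.4 and 23.8 TPM in lung CD44low, 3.17 and 2.06 TPM in lung CD44high, 1.43 and 1.18 TPM in MFP and at most 1.32 TPM elsewhere. It was higher in lung CD44low than in MFP by 3.22 ± 0.28 (adjusted p = 1.05e-05). Fzd8 was high in both lung groups, at 14.02 and 16.2 TPM in CD44low and 14.3 and 5.17 TPM in CD44high, against at most 0.76 TPM in the other 10 libraries. The lung libraries stood clear of all others, with differences from MFP of 3.92 ± 0.38 and 3.19 ± 0.38, but Fzd8 had passed the filter through the lung alone.

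Fzd2 covered a narrower range, from 1.11 and 0.47 TPM in MFP through 2.94 to 4.13 TPM in LN and BM to 6.20 to 8.92 TPM in the lung, with no overlap between these sets of libraries. It was called higher than MFP in lung CD44low (2.39 ± 0.27) and lung CD44high (2.11 ± 0.27). Fzd6 went the other way. It was at 2.91 and 4.89 TPM in lung CD44low and between 10.5 and 48.4 TPM in the other 12 libraries, where it was the frizzled receptor with the highest level in all but BM CD44low replicate 2, and lung CD44low was called lower than MFP (-2.58 ± 0.41, adjusted p = 0.000661).

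Fzd7, a receptor linked to mammary stem and basal-like tumor cells, was low in the primary tumor, at 0.30 and 0.38 TPM. It was at 21.1 and 21.2 TPM in lung CD44low, 1.42 and 0.60 TPM in lung CD44high, 37.3 TPM in BM CD44low replicate 2 and 2.11 to 6.25 TPM in the other LN and BM libraries. All 12 metastasis-derived libraries therefore lay above MFP. Against MFP it was called higher in lung CD44low (4.05 ± 0.66), BM CD44low (3.55 ± 0.66, and 2.26 without replicate 2), BM CD44high (2.26 ± 0.66) and LN CD44high (2.27 ± 0.66), while LN CD44low was at 1.55 ± 0.66 (adjusted p = 0.166). The LN CD44high and BM CD44high calls were each lost in 6 of 14 fits that left out 1 library.

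Fzd9 was highest in the marrow, at 4.04 and 23.0 TPM in BM CD44low and 9.35 and 5.92 TPM in BM CD44high. It was at 1.04 to 4.28 TPM in LN, 0.55 and 0.19 TPM in MFP and at most 0.05 TPM in the lung, so LN and BM overlapped while the lung was below all others. It was called higher than MFP in BM CD44low (3.02 ± 0.59) and BM CD44high (2.64 ± 0.59). Without BM CD44low replicate 2 the first of these was 1.89 and was not called. Fzd3 and Fzd4, at 0.99 to 4.27 TPM and 0.13 to 1.95 TPM, were called in no comparison.

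Both co-receptors were highest in the lung and in the single BM library that stood apart. Lrp5 (ENSMUSG00000024913.16, mm10 chr19:3584828-3686564, minus strand) was at 79.4 and 41.1 TPM in lung CD44high, 21.7 and 31.8 TPM in lung CD44low and 74.4 TPM in BM CD44low replicate 2. The other 9 libraries were between 2.47 and 6.43 TPM. Lung CD44high was higher than MFP by 3.92 ± 0.95 (adjusted p = 0.0095) and lung CD44low by 2.83 ± 0.95 (adjusted p = 0.0349).

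Lrp6 was at 14.8 and 28.5 TPM in lung CD44low, 11.9 and 4.66 TPM in lung CD44high, 17.2 TPM in BM CD44low replicate 2 and 1.39 to 2.74 TPM elsewhere. It was called higher than MFP in lung CD44low (2.61 ± 0.72, adjusted p = 0.0147), and was at 1.27 ± 0.72 in lung CD44high (adjusted p = 0.209). The Lrp5 call in lung CD44low was lost without either MFP library, without either lung CD44low library and with no filter on low TPM. The Lrp6 call was lost without either MFP library and without lung CD44low replicate 2.

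The R-spondins gave the largest values of the family. Rspo3 (ENSMUSG00000019880.10, mm10 chr10:29452416-29535867, minus strand), which in the lung is made chiefly by stromal and vascular cells, was at 271 and 254 TPM in lung CD44low and at 4.58 and 11.9 TPM in lung CD44high. It was at 0.12 and 0 TPM in MFP and at 0 in all 8 LN and BM libraries, so the 3 sets did not overlap. The difference from MFP was 7.96 ± 0.34 in lung CD44low and 3.002 ± 0.34 in lung CD44high, a direction fixed by its passing the filter through the lung alone. The difference of CD44high from CD44low in the lung was -4.96 ± 0.34 (adjusted p = 2.63e-06).

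Rspo1 was at 4.84 and 5.27 TPM and Rspo2 at 3.28 and 14.9 TPM in lung CD44low. Elsewhere Rspo1 was at most 0.57 TPM and Rspo2 at most 0.17 TPM, and both were listed at 0 in MFP. Both passed the filter through lung CD44low alone. Of the R-spondin receptors, Lgr5 was at most 0.04 TPM. Lgr4 was at 3.66 to 12.7 TPM in 13 libraries and at 19.9 TPM in BM CD44low replicate 2, and was called in no comparison. Lgr6 was at 9.0 and 7.54 TPM in LN CD44low, above all other libraries (0.02 to 3.22 TPM), and was called higher there than in MFP (2.11 ± 0.31, adjusted p = 0.00137).

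Secreted antagonists accompanied the R-spondins in lung CD44low. Sfrp1 (ENSMUSG00000031548.7, mm10 chr8:23411502-23449632, plus strand), a frizzled-related protein lost in many breast carcinomas, was at 65.4 and 61.9 TPM there. It was at 4.29 and 9.59 TPM in lung CD44high, 9.39 TPM in BM CD44low replicate 2, 1.01 to 3.22 TPM in the other LN and BM libraries and 0.28 and 0.67 TPM in MFP. Lung CD44low was higher than MFP by 5.47 ± 0.50 (adjusted p = 1.6e-05) and lung CD44high by 2.36 ± 0.50 (adjusted p = 0.00491). BM CD44low was called higher by 2.01 ± 0.50, but by 1.19 and not called without replicate 2.

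Dkk3 (ENSMUSG00000030772.6, mm10 chr7:112116017-112159057, minus strand), a divergent Dkk protein, was at 44.8 and 56.4 TPM in lung CD44low and at no more than 0.04 TPM in any other library. Dkk2 was at 5.13 and 6.12 TPM there and at most 0.17 TPM elsewhere, and Sfrp4 at 2.58 and 6.85 TPM there and at most 0.07 TPM elsewhere. Sfrp2 was at 6.25 and 7.99 TPM in lung CD44low and 4.87 and 2.97 TPM in lung CD44high and was listed at 0 in the other 10 libraries. For each of these the lung CD44low libraries lay above all others. Dkk2, Dkk3 and Sfrp4 passed the filter through lung CD44low alone and Sfrp2 through the lung groups alone.

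Wif1, the Wnt inhibitory factor, marked other organs. Wif1 (ENSMUSG00000020218.11, mm10 chr10:121033960-121100650, plus strand) was at 152 and 43.9 TPM in BM CD44high, 39.8 and 22.5 TPM in BM CD44low, 41.4 and 6.38 TPM in LN CD44high, 0.45 and 1.01 TPM in LN CD44low, at most 0.40 TPM in the lung and at most 0.06 TPM in MFP. BM and LN CD44high libraries overlapped, and both lay above the lung and MFP. The difference from MFP was 6.33 ± 0.76 in BM CD44high, 4.91 ± 0.76 in BM CD44low and 4.10 ± 0.76 in LN CD44high, and that of the lung groups from the LN and BM groups was -3.85 ± 0.47, directions that the filter fixed. In LN the CD44high libraries exceeded CD44low by 3.37 ± 0.76 (adjusted p = 0.128), which was not called.

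Axin2, a direct target of beta-catenin that feeds back on the pathway, was low throughout. It was at 2.97 and 2.39 TPM in lung CD44high, 1.88 TPM in BM CD44low replicate 2 and at most 0.35 TPM in the other libraries. The lung CD44high libraries lay above all others. Axin2 differed between lung CD44high and CD44low by 1.55 ± 0.34 (adjusted p = 0.00764) and from MFP by 1.65 ± 0.34 (adjusted p = 0.00432), both under the fold threshold. With a pseudocount of 0.1 these differences were 2.99 and 3.47 and were called. Their direction was built in, since Axin2 had passed the filter through lung CD44high and BM CD44low alone.

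**Figure D3:**
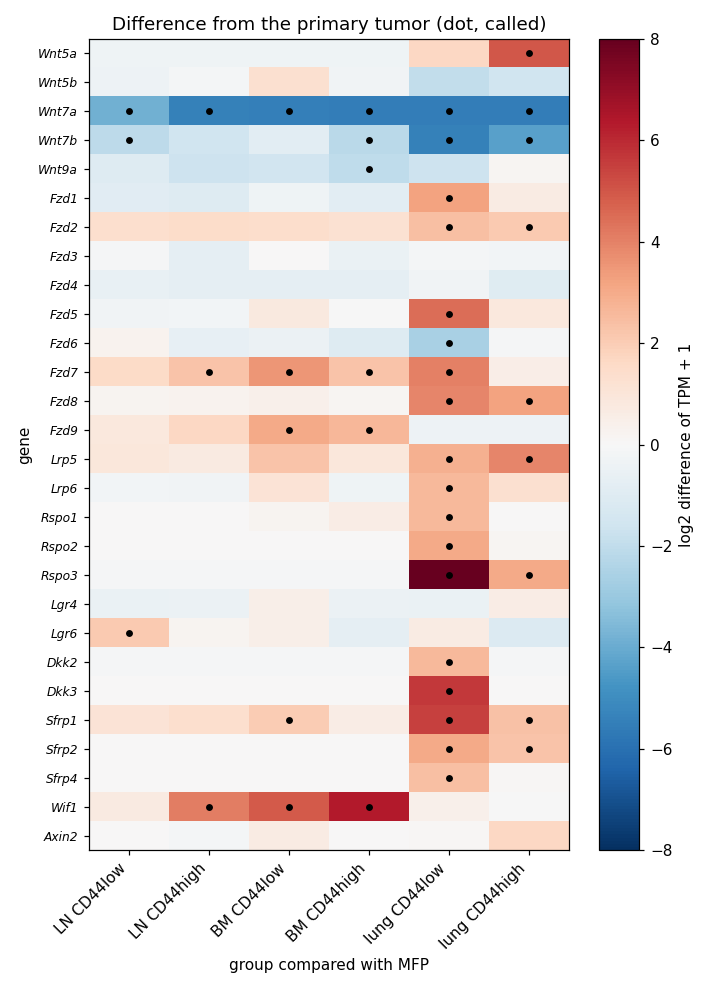
Difference of each of 6 groups (columns) from MFP for the 28 members (rows), as the difference of mean log2(TPM + 1); red is higher than MFP, blue lower, and a dot marks a called difference. The lung CD44low column has 18 dots, the lung CD44high column 9 and the LN and BM columns 3 to 6, and all columns share the same MFP libraries.

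Counted over each comparison with MFP, 15 members were called higher and 3 lower in lung CD44low, where 18.8% of all genes tested were called, 11.2% higher and 7.62% lower. Of the 15, 8 had passed the filter through the lung alone. The other 7, Fzd1, Fzd2, Fzd5, Fzd7, Lrp5, Lrp6 and Sfrp1, were among 19 members that passed through other groups too. In lung CD44high 7 were called higher, 4 of which had passed through the lung alone, and 2 lower, beside 13.5% of all genes, 5.42% higher and 8.03% lower. In LN CD44low 1 was higher and 2 lower (4.79% of all genes, 2.07% higher and 2.72% lower), and in LN CD44high 2 were higher and 1 lower (6.13%, 2.45% and 3.68%). In BM CD44low 4 were higher and 1 lower (7.16%, 3.99% and 3.17%), and in BM CD44high 3 were higher and 3 lower (7.67%, 3.64% and 4.03%). With the mean of the lung groups set against the mean of the LN and BM groups, 9 were higher, 5 of which had passed through the lung alone, and 3 lower (12.7%, 7.13% and 5.54%). The median difference over the 28 members tested was 2.40 in lung CD44low against 0.00 for all genes tested, and it included the members that passed through the lung alone. In the other groups against MFP it lay between -0.08 and 0.14. Median-ratio scaling moved the median of all genes by 0.37 in BM CD44high, 0.32 in LN CD44high, 0.19 in LN CD44low, 0.15 in BM CD44low and -0.21 in lung against LN and BM.

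Several calls near the threshold rested on 1 library. Against MFP, the difference in lung CD44high was 1.85 for Fzd2 without MFP replicate 2, 1.86 for Sfrp1 without lung CD44high replicate 2 and 1.99 for Sfrp2 without lung CD44high replicate 1, and none of these was called. Sfrp4 in lung CD44low was at 1.84 without replicate 2, Lgr6 in LN CD44low at 1.99 without replicate 1, and Wnt9a in BM CD44high at -1.81 without MFP replicate 1 and also not called without BM CD44high replicate 1. The adjusted p passed 0.05, or the difference fell short, for Lrp5 in lung CD44high without MFP replicate 1 or lung CD44high replicate 1 and for Fzd9 in BM CD44high without MFP replicate 2 or BM CD44high replicate 1. The same held for Wnt7b in LN CD44low without either MFP library or LN CD44low replicate 2, and in BM CD44high without MFP replicate 1 or BM CD44high replicate 2.

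The contrast of CD44high with CD44low asked whether the sorted marker separated these genes within an organ. In the lung, 12 of the 28 members tested were called, and 11.3% of all genes tested were, 2.49% higher and 8.8% lower. Wnt5a and Fzd6 were higher in CD44high, Fzd6 by 2.46 ± 0.41 (adjusted p = 0.00141). The 10 lower members were Rspo1, Rspo2, Rspo3, Dkk2, Dkk3, Sfrp1, Sfrp4, Fzd1, Fzd5 and Fzd7, 5 of which had passed the filter through lung CD44low alone. Without lung CD44low replicate 2, Rspo2 (-1.96) and Sfrp4 (-1.77) were no longer called. The difference was -3.49 ± 0.66 for Fzd7 (adjusted p = 0.00303), -3.11 ± 0.50 for Sfrp1 (adjusted p = 0.0012) and -2.58 ± 0.28 for Fzd1 (adjusted p = 7.98e-05). Wnt9a (1.82 ± 0.35, adjusted p = 0.00325) and Lgr6 (-1.76 ± 0.31, adjusted p = 0.00199) differed by less than the fold threshold. Of the fibroblast markers, 8 of 9 tested were called lower in lung CD44high than in lung CD44low, 3 of which (Col1a2, Lum and Thy1) had passed the filter through lung CD44low alone, and their part in the differences of the members was not tested.

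In LN and BM no member was called by limma. In LN, 32 genes of all tested were called (0.208%), and 4 members had an unadjusted p under 0.05, beside 10.1% of all genes, among them Lgr6 (-1.90 ± 0.31, adjusted p = 0.0363) and Wif1. In BM, 16 genes were called (0.104%) and 5 members had an unadjusted p under 0.05, beside 7.4% of all genes. The BM values turned on BM CD44low replicate 2: with replicate 1 left out instead, leaving replicate 2 alone in its group and assumed to vary like the others, 7 members were called lower in CD44high, namely Fzd7, Lgr4, Lrp5, Lrp6, Sfrp1, Wnt5b and Wnt7b, beside 6.35% of all genes called in that fit, 6.01% lower. Without replicate 2 no member was called, beside 0.0847% of all genes, 0.0586% lower. Across LN, BM and lung together, with organ in the fit, no member and no gene at all was called (0%), and 7 members had an unadjusted p under 0.05, beside 19.7% of all genes. Lgr6, among the 7, was lower in CD44high in each organ, with a difference of -1.60 ± 0.22 across them (adjusted p = 0.152).

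**Figure D4:**
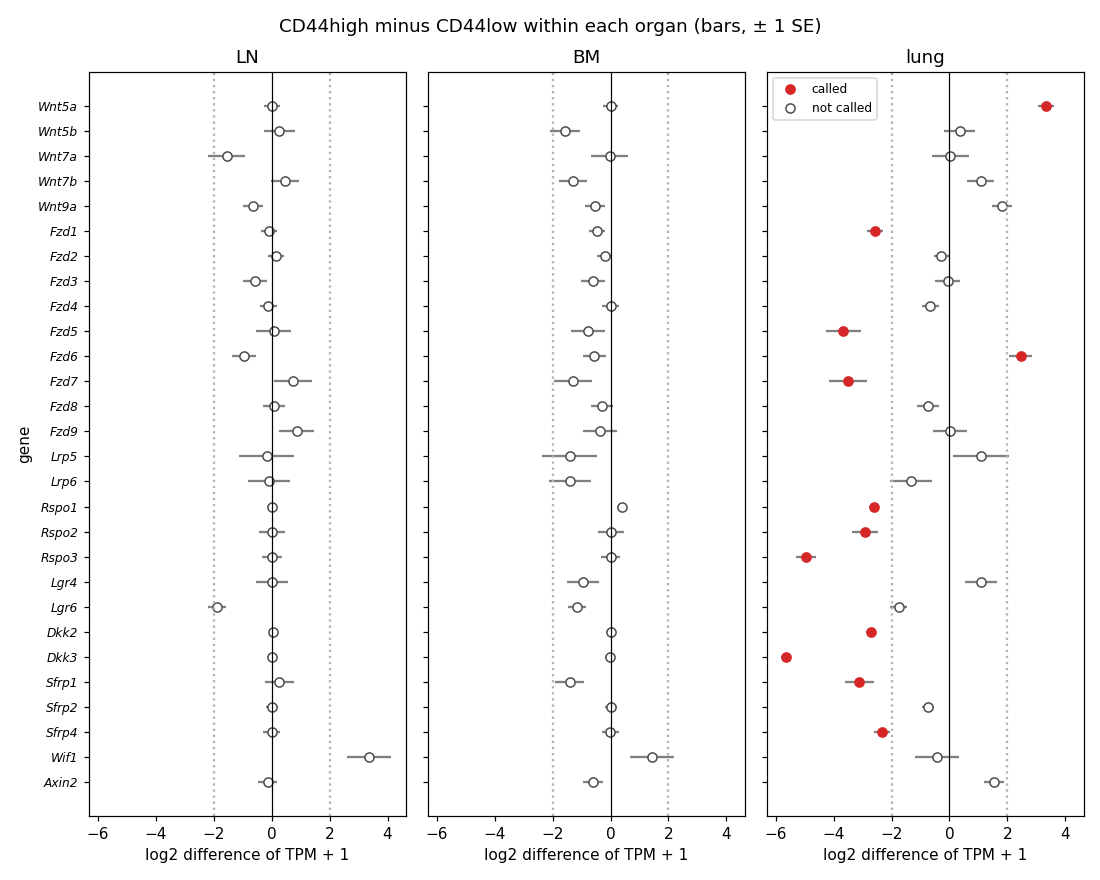
Difference of CD44high from CD44low within LN, BM and lung for the 28 members, as the difference of mean log2(TPM + 1) with bars of 1 SE; red points are called and dotted lines mark the threshold of 2 in either direction. Red points are found in the lung panel alone, 10 to the left and 2 to the right, and Wif1 in LN lies at 3.37 without a call.

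The difference between organs was itself tested. The lung CD44 difference was above that of LN for 3 members and below it for 11, where 10.4% of all genes tested differed, 3.39% above and 7% below. It was above that of BM for 5 members and below it for 8 (8.66%, 2.77% and 5.89%), and 16 distinct members differed from LN or BM. For Fzd6 the lung contrast exceeded that of LN and BM by 3.42 ± 0.58 and 3.02 ± 0.58. Wnt5a and Rspo3, also counted here, were at 0 in all LN and BM libraries, so for them the difference only repeats the lung contrast. Wif1, below LN, was at most 0.40 TPM in the lung, so its difference mostly restates the LN contrast, which was not called. Of the members below, 5 in each case (Dkk2, Dkk3, Rspo1, Rspo2 and Sfrp4) had passed the filter through lung CD44low alone, which fixed their direction. Axin2, above BM, had passed through lung CD44high and BM CD44low alone, which fixed its direction too.

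Genes that carry the signal onward were compared by lists. Of all genes tested, 11.2% were called higher and 7.62% lower in lung CD44low than in MFP, and 5.42% higher and 8.03% lower in lung CD44high. Of 22 genes of the destruction complex and nuclear factors tested, 3 were called higher in lung CD44low than in MFP, namely Bcl9 (4.50 ± 0.68), Tcf7l2 (2.65 ± 0.74) and Gsk3a (2.49 ± 0.64), and none lower. Bcl9, a beta-catenin co-factor, was at 42.8 and 44.2 TPM in lung CD44low, 31.0 and 20.8 TPM in lung CD44high and 0.94 and 0.99 TPM in MFP, but also at 31.2 TPM in BM CD44low replicate 2. That library was also high for Tcf7l2, at 54.4 TPM against 66.3 and 89.95 TPM in lung CD44low. For Gsk3a it was at 14.8 TPM, against 8.08 and 11.1 TPM in lung CD44low. Of the 4 genes of Wnt secretion, Porcn, the enzyme that attaches the lipid to Wnt proteins, was called higher in both lung groups than in MFP (2.79 ± 0.43 and 2.31 ± 0.43), at 10.1 to 19.1 TPM against 0.67 to 3.76 TPM outside the lung. The median difference of lung CD44low from MFP was 1.31 over the first list and 0.75 over the second. Genes of both lists also went the other way without a call. Ctnnb1, the gene of beta-catenin, was at 124 and 135 TPM in MFP and at 27.7 and 46.6 TPM in lung CD44low. Vps35, of the second list, was at 135 and 151 TPM in MFP and at 24.6 and 50.8 TPM in lung CD44low.

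Of 12 planar cell polarity and non-canonical receptor genes tested, 1 was higher and 1 lower in lung CD44low than in MFP. Ror2, a receptor for Wnt5a, was at 19.2 and 27.9 TPM in lung CD44low and listed at 0 in the other 12 libraries, including the lung CD44high libraries where Wnt5a was highest. It passed the filter through lung CD44low alone, which fixed its direction. Celsr1, a polarity cadherin, was lower (-3.51 ± 0.45). Of 4 other extracellular modulators tested, 3 were called higher in lung CD44low than in MFP and lower in lung CD44high than in CD44low: Reck and Adgra2, which together serve as a co-receptor for Wnt7 ligands, and Tpbg. Reck was at 27.3 and 33.3 TPM and Adgra2 at 11.2 and 7.83 TPM in lung CD44low, where Wnt7a and Wnt7b were at or near 0. Adgra2 had passed the filter through lung CD44low and BM CD44low alone, which fixed both of its directions.

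Of 12 target and feedback genes tested, 3 were higher and 2 lower in lung CD44high than in MFP, and 1 was higher and 1 lower in lung CD44low. Apcdd1, a membrane-bound inhibitor of Wnt signaling, was at 62.7 and 35.6 TPM in lung CD44high and at most 1.63 TPM elsewhere. Notum, an enzyme that removes the lipid from Wnt proteins, was at 22.8 and 13.2 TPM there and at most 0.18 TPM elsewhere. Apcdd1 had passed the filter through the lung groups alone and Notum through lung CD44high alone, so their higher levels there were built in. Between lung CD44high and CD44low, Apcdd1 was higher by 4.20 ± 0.32, the difference of Notum was 4.10 ± 0.22, and Nkd2 (-4.56 ± 0.29) and Ccn4 (-4.63 ± 0.55) were lower. Bambi was the third gene higher in lung CD44high than in MFP (2.27 ± 0.27). The lower genes were Nkd2, an inhibitor that binds dishevelled (-5.18 ± 0.29), and Ccnd1, a cyclin of the G1 phase (-3.25 ± 0.50). In lung CD44low, Ccn4 was the higher gene (2.73 ± 0.55) and Ccnd1 the lower (-2.33 ± 0.50). Against MFP, 1 gene of this list was higher and 0 lower in LN CD44low. In LN CD44high and in BM CD44low 1 was higher and 1 lower, and in BM CD44high 2 and 1. Of all genes, 2.07% to 3.99% were higher and 2.72% to 4.03% lower in these groups. The LN CD44low gene was Tnfrsf19, at 7.48 and 4.43 TPM there and 0.12 and 0.09 TPM in MFP. It had passed the filter through LN and BM alone, which fixed its direction. Lef1, a nuclear partner of beta-catenin, was at 2.20 to 9.98 TPM in LN and BM, at most 0.58 TPM in the lung and 0 in MFP, and was called higher than MFP in LN CD44high, BM CD44low and BM CD44high, a direction fixed by its passing the filter through LN and BM alone. Myc, a growth regulator often named as a Wnt target, was called lower than MFP in the same 3 groups (-2.57 ± 0.43, -2.45 ± 0.43 and -2.83 ± 0.43), from 187 and 154 TPM in MFP to 21.2 to 32.9 TPM.

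Per the study's methods, the single-cell libraries were made from lines of the lung CD44high, lung CD44low and LN CD44high groups. Which isolate each came from is not given in the sources used here. Counts at the 3′ end were summed over cells with more than 250 genes and under 10% mitochondrial counts. These were 1236 lungH, 348 lungL and 2562 lymphH cells, with 2210623, 2220759 and 5287425 counts in all and medians of 557, 4011 and 585 counts per cell. With 1 library per group there is no test; intervals are exact Poisson 95% intervals that cover counting error only. At least 3 counts were found for 20, 20 and 23 members. The cell columns carry numbers in place of barcode sequences, so barcodes shared between libraries were not counted here. Among fibroblast markers, Col1a2 had 0, 3192 and 2 counts in lungH, lungL and lymphH, Dcn had 0, 22 and 0 counts, and Lum had none in any of the 3. Among epithelial markers, Epcam had 3, 0 and 936 counts, and Krt8, Cldn3, Cldn4, Cdh1 and Esrp1 were also highest in lymphH, while Krt18 was at 2.59, 0.522 and 1.17 per 10000, highest in lungH.

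Several members kept their bulk order. Rspo3 was at 0.540 counts per 10000 (0.448 to 0.646) in lungL, from 120 counts, at 0.0136 (0.00280 to 0.0397) in lungH, from 3 counts, and had none in lymphH. Dkk3 had 130 counts in lungL, 0.585 per 10000 (0.489 to 0.695), and none in lungH or lymphH, where the upper bounds were 0.0167 and 0.00698 per 10000. Both were thus highest in the lung library labelled CD44low.

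Among receptors, Fzd7 was at 1.58 per 10000 (1.42 to 1.76) in lungL, 0.222 (0.164 to 0.293) in lungH and 0.479 (0.421 to 0.541) in lymphH. Fzd6 had the reverse order, at 0.117 (0.0765 to 0.171) in lungL, 0.837 (0.721 to 0.967) in lungH and 0.579 (0.516 to 0.647) in lymphH. In both cases no intervals overlapped. Wnt7b was at 0.598 (0.534 to 0.667) in lymphH against 0.0766 (0.0446 to 0.123) in lungL and 0.0226 (0.00734 to 0.0528) in lungH. The lung intervals overlap, and their order is the reverse of the bulk, where Wnt7b was at 1.47 and 0.92 TPM in lung CD44high and at 0.02 and 0.04 TPM in lung CD44low. Wnt9a and Axin2 were higher in lungH (37 and 19 counts) than in lungL (1 and 0 counts).

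**Figure D5:**
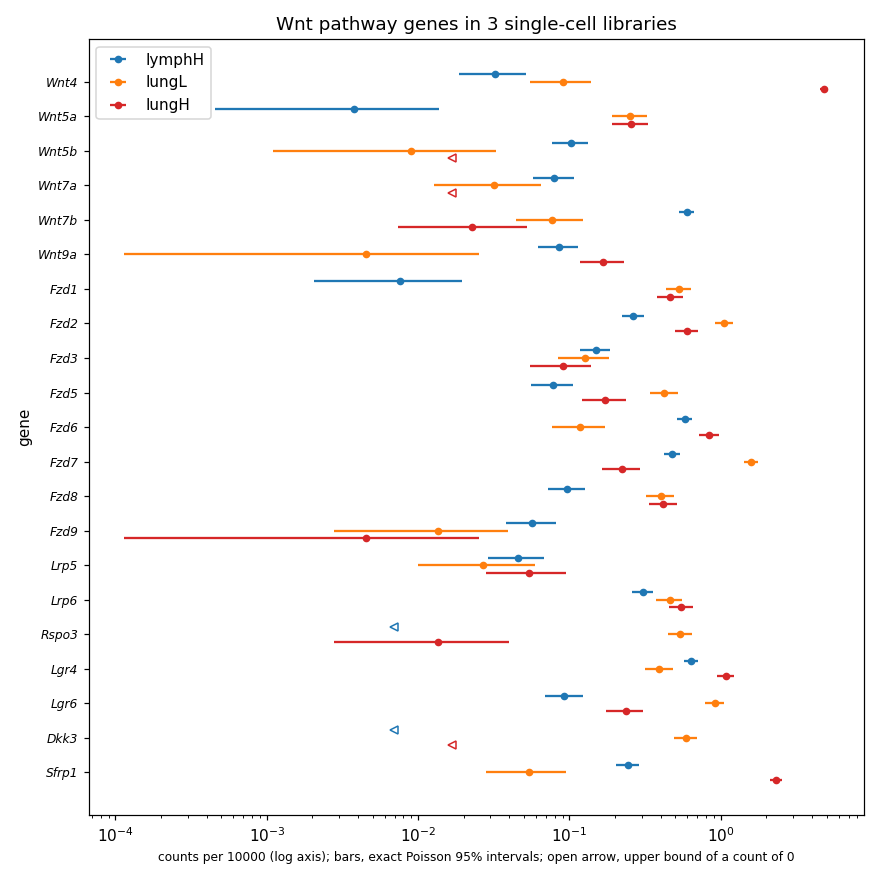
Counts per 10000 on a log axis for the 21 members with at least 20 counts in a library, in lymphH, lungL and lungH; bars are exact Poisson 95% intervals and open arrows the upper bound where no count was found. Wnt4 and Sfrp1 in lungH are the highest values, and Rspo3 and Dkk3 stand out in lungL.

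Other members differed from the bulk. Wnt4, a ligand of mammary side branching, had 1069 counts in lungH, or 4.84 per 10000 (4.55 to 5.13), the highest of any member in any of the 3 libraries. It was at 0.0901 (0.0550 to 0.139) in lungL and 0.0321 (0.0187 to 0.0515) in lymphH. In the bulk libraries Wnt4 was at no more than 0.31 TPM, lung CD44high included. Sfrp1 was at 2.32 (2.12 to 2.53) in lungH and 0.0540 (0.0279 to 0.0944) in lungL, the reverse of its bulk order in the lung. Wnt5a did not separate the lung libraries, at 0.253 (0.191 to 0.329) in lungH and 0.252 (0.190 to 0.328) in lungL, with 56 counts in each, while lymphH had 2 counts. Fzd1 was likewise close in lungH and lungL (102 and 117 counts). Wif1, at 41.4 and 6.38 TPM in the LN CD44high bulk libraries, had only 9 counts in lymphH. It had none in lungH or lungL, so its bulk order was kept at a low level.

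Lrp5 was at 0.0543 (0.0281 to 0.0948) in lungH, 0.0270 (0.00992 to 0.0588) in lungL and 0.0454 (0.0291 to 0.0675) in lymphH, with intervals that overlap, although its bulk level was highest in the lung. Lgr6 was highest in lungL, at 0.910 (0.789 to 1.04) against 0.235 (0.176 to 0.309) in lungH and 0.0927 (0.0686 to 0.123) in lymphH. In the bulk it was at 2.45 and 2.44 TPM in lung CD44low, 0.02 TPM in both lung CD44high libraries and 1.34 and 1.61 TPM in LN CD44high, so lungH and lymphH were in the reverse order. Dkk2 had no count in any of the 3 libraries, and Sfrp2 had none in lungL and 7 in lungH, although both were highest in lung CD44low in the bulk. Wnt7a, at 0 and 0.19 TPM in the LN CD44high bulk libraries, had 42 counts in lymphH, or 0.0794 per 10000 (0.0573 to 0.107). It had 7 counts in lungL and none in lungH.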

How the data were processed

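Bulk RNA came from 14 libraries of sorted or primary tumor-derived lines, and single-cell RNA from 3 libraries. The authors made the bulk libraries by a modified SMART-seq2 protocol, aligned reads to mm10 with STAR and estimated levels with RSEM, and deposited TPM values for 55450 Ensembl genes. TPM sums to the same total in each library and keeps no read depth, so the depth behind a bulk value is unknown. Symbols came from the row names of a single-cell matrix. The single-cell files hold counts per gene and cell that the authors deposited after droplet capture, barcode handling with Ddseeker and quantification with kallisto. Cells with more than 250 genes and under 10% mitochondrial counts were kept, no doublet caller was run, and totals ran from 2210623 to 5287425 counts.

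limma 3.58.1 (R 4.3.3, lmFit and eBayes with a trend) was fitted to log2(TPM + 1), a log2 scale computed here from the deposited TPM, over 15348 genes and 7 group means with 7 residual degrees of freedom. The exact test on read counts that the study's methods name was not used, since TPM is not a count. A call required a difference beyond 2, with the Benjamini-Hochberg adjusted p below 0.05. The fit was tested on simulated data. Members with a call, or with at least 5 TPM in both libraries of a group, were named. From the other gene lists, at most 4 genes per list and comparison were named, those with the largest called differences. The members and lists were chosen with earlier results of these data known. Alternatives were a pseudocount of 0.1, no filter or one of 5 TPM, median-ratio scaling, only the groups compared, a replicate block, unadjusted p, each library left out, and, chosen after seeing the data, removal of trends on GC content and transcript length. For the single cells they were a minimum of 500 genes, a mitochondrial limit of 20%, no mitochondrial limit, and all barcodes. Promoters came from RefSeq (GRCm38.p6). Replicate numbers did not pair the samples: correlations of replicate deviations between groups ran from -0.194 to 0.168, with 3 of 21 over 0.1.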

Additional observations from a re-analysis of the deposited data

Results flagged for a closer look

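The difference between CD44high and CD44low cells in the lung departed from that in LN or BM, by limma's test of the difference between the contrasts, for 16 members. Values are on the log2(TPM + 1) scale, with the adjusted p over all genes tested. Against LN, the lung contrast was higher for Wnt5a (3.34), Fzd6 (3.42) and Wnt9a (2.48), with adjusted p from 0.00019 to 0.00632. It was lower for Dkk3 (-5.65), Rspo3 (-4.96), Fzd7 (-4.21), Wif1 (-3.80), Fzd5 (-3.73), Sfrp1 (-3.38), Rspo2 (-2.90), Dkk2 (-2.77), Rspo1 (-2.60), Fzd1 (-2.48) and Sfrp4 (-2.34), with adjusted p up to 0.0341.

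Against BM, the lung contrast was higher for Wnt5a (3.34), Fzd6 (3.02), Wnt7b (2.39), Wnt9a (2.35) and Axin2 (2.17). It was lower for Dkk3 (-5.62), Rspo3 (-4.96), Rspo1 (-2.98), Rspo2 (-2.90), Fzd5 (-2.87), Dkk2 (-2.72), Sfrp4 (-2.33) and Fzd1 (-2.10), with adjusted p up to 0.046 in either direction.

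Rspo1, Rspo2, Dkk2, Dkk3 and Sfrp4 had passed the filter on low values through lung CD44low alone, which fixed their direction here, so their values are descriptions and not tests. The same holds for Axin2 against BM, since it had passed through lung CD44high and BM CD44low alone. Rspo3 and Wnt5a were at 0 in all LN and BM libraries, so their values only repeat the lung contrast and are no test of a difference between organs. Wif1 was at most 0.40 TPM in the lung, so its value mostly restates the LN contrast of 3.37, which was not called. The least stable calls were Wnt7b and Fzd5 against BM, called in 3 and 4 of 14 fits that left out 1 library, and Wif1 against LN, called in 5. Wnt7b (1.47), Axin2 (1.502) and Wnt9a (1.95) against BM were no longer called without BM CD44low replicate 2. Axin2 was also lost without lung CD44low replicate 1 or lung CD44high replicate 1. Without lung CD44low replicate 2, Rspo2 (-1.96) and Sfrp4 (-1.76 against BM and -1.77 against LN) were not called against either organ. Fzd1 against BM was not called with a pseudocount of 0.1 (-1.85) or without BM CD44low replicate 1 (-1.76), lung CD44low replicate 2 or lung CD44high replicate 2. The fibroblast markers fell from 4789 and 5230 TPM in lung CD44low to 216 and 103 TPM in lung CD44high, and their part in these differences was not tested.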

How the results depend on the processing

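With 2 libraries per group and 7 residual degrees of freedom, and with no read depth in TPM, small differences among low genes could not be resolved. Over the 95 called differences of single members, no alternative turned a direction; 66 stayed called whichever library was left out, 84 of 1330 such fits lost the call, and 29 of 803 fits under other settings did. The cause was not tested. For the members whose direction the filter fixed, an unturned direction was built in and says nothing of their stability. The count of members called against MFP changed from 3 to 6 in LN CD44low and from 3 to 8 in LN CD44high with a pseudocount of 0.1, and from 3 to 1 in LN CD44low and from 5 to 2 in BM CD44low when only the groups compared were fitted, which leaves fewer libraries for the spread. CD44high against CD44low in LN went from 0 to 1 with unadjusted p. Leaving out 1 library at a time, the counts against MFP ran from 15 to 18 (lung CD44low), 7 to 9 (lung CD44high), 2 to 3 (LN CD44low), 2 to 3 (LN CD44high), 3 to 8 (BM CD44low) and 3 to 6 (BM CD44high). BM CD44low gave 8 without its replicate 1 and 3 without its replicate 2, and BM CD44high gave 3 without MFP replicate 1 or its own replicate 1. CD44high against CD44low ran from 10 to 13 in lung, 0 to 1 in LN, 0 to 7 in BM and 0 to 0 across organs, lung against LN and BM from 11 to 14, and the contrast differences between organs from 12 to 19. The single-cell counts of members stayed between 20 and 24. A fit with the replicate number as a block, whose pairing the data did not bear out, kept 18 and 9 calls in lung CD44low and CD44high against MFP and 12 between the lung groups, and lost the calls of Fzd5 and Wnt7b for lung against BM.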

Other observations

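BM CD44low replicate 2 carried several receptors at levels not seen in replicate 1. The members that differed by more than 2 on the log2 scale between these libraries were 7 in number: Fzd5, Fzd7, Fzd9, Lrp5, Lrp6, Lgr4 and Wnt5b. No other group had more than 1 such member, and 1198 of the 15348 genes tested differed by that much between the BM CD44low replicates against 114 to 552 between the replicates of the other groups. Rank correlation between its replicates was 0.895, against 0.919 to 0.975 in the other groups.

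In the single-cell data, Wnt4 was counted in 278 of 1236 lungH cells (22.5%), in 12 of 348 lungL cells (3.45%) and in 17 of 2562 lymphH cells (0.664%), at median depths of 557, 4011 and 585 counts per cell. Under the other cell filters its level in lungH ran from 4.60 to 5.12 counts per 10000, and that of Sfrp1 from 2.25 to 2.33. Apcdd1 and Notum, which were high in lung CD44high in the bulk, had 341 and 168 counts in lungH, 73 and 8 in lungL and 24 and 0 in lymphH. Nkd2 also kept its bulk order, at 0.0271 per 10000 in lungH, 0.374 in lungL and 0.554 in lymphH. Lef1, Ccnd1 and Ccn4 were higher in lungH than in lymphH, the reverse of lung CD44high and LN CD44high in the bulk. Per 10000 they were at 0.145, 7.81 and 0.317 in lungH and at 0.0454, 6.54 and 0.0624 in lymphH.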
